A study of Mus musculus with 14 samples.

Results

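The TIM and TOM genes encode the translocases that bring nuclear-encoded proteins into mitochondria, and their transcripts were compared between brains of Rik null and WT mice. Members were the protein-coding rows of the deposited gene table whose names begin with Timm followed by a digit or the letter d, or with Tomm followed by a digit. There were 26 such genes among 56748 rows, of which 23 had enough reads to be tested. The name rule also took in Tomm34 and Timmdc1, whose products are not translocase subunits. Brain RNA was sequenced in 14 libraries at postnatal day 23 (P23), each labelled as a numbered mouse of the C57BL6/J strain. The 7 Rik null libraries (4 labelled female and 3 male) came from mice homozygous for a deletion in the first intron of 2310061I04Rik (Rik), a gene of undescribed function. The deletion arose spontaneously in an embryonic stem cell clone during targeting of Traf7 and was bred away from the modified Traf7 locus, so every Rik null animal carries that 1 allele. The 7 WT libraries (3 female and 4 male) came from littermates with intact Rik. The study asked what the loss of Rik does to the brain transcriptome at this age, when the mutants are runted, ataxic and near death, so the effects of the gene and of illness cannot be told apart.

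Mitochondria make only a few proteins of their own, and nearly all the others are translated in the cytosol and imported. Proteins cross the outer membrane through the TOM complex, in which the Tomm20, Tomm22 and Tomm70a products are receptors and the Tomm40 product forms the pore. The TIM23 complex then takes proteins with a cleavable presequence across the inner membrane, and the TIM22 complex inserts carrier proteins into it. Small TIM proteins chaperone hydrophobic precursors through the space between the membranes. Neurons and myelinating glia depend on this supply, and mutations of the human counterpart of Timm8a1 cause deafness with dystonia.

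Rik itself was examined first. It had 1.03 to 3.37 CPM (counts scaled to the same depth, with library sizes adjusted by trimmed mean of M values, TMM) in Rik null libraries, against 30.3 to 40.9 CPM in WT libraries, so all 14 libraries matched their labels. Total counts were 14.7 to 17.9 M per Rik null library and 14.7 to 17.05 M per WT library. Rik null replicate 1 stood apart from the other Rik null libraries on the first principal component (a score of -54.5, against -23.8 to -22.0 for the others), and WT replicate 4 stood apart on the third. Leaving out both libraries left 4 members higher and 5 lower in Rik null brains, as with all libraries. In that fit 14.2% of all genes were higher and 16.2% were lower. All 13 mRNAs of the mitochondrial genome were lower in Rik null brains.

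Of the 23 members tested, 9 (39.1%) differed between genotypes at an adjusted p under 0.05, and 34.4% of all 16882 genes tested did so. Timm9, Timm29, Timm44 and Tomm20 were higher in Rik null brains, and Tomm40l, Timmdc1, Tomm34, Timm22 and Tomm40 were lower. The 4 higher members were 17.4% of those tested, beside 16.5% of all genes, and the 5 lower members were 21.7%, beside 17.9% of all genes. The shares of members called were thus near those of all genes, and the median size of a difference was 0.23 on the log2 scale for members and 0.22 for all genes. The median log2 fold change (Rik null over WT) was -0.07 over the members and 0.00 over all genes. No member was called with a difference of at least 2-fold, as 3.54% of all genes were. Libraries of the genotypes did not overlap for 5 members, a pattern seen in 12.4% of all genes. Of these, 4 were higher in Rik null brains (5.38% of all genes) and 1 was lower (7.03% of all genes). Every adjusted p comes from 1 edgeR quasi-likelihood fit over the whole table, corrected by Benjamini-Hochberg, unless another test is named. These are bulk samples, in which fewer cells of a type and less RNA per cell cannot be told apart.

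**Figure D1:**
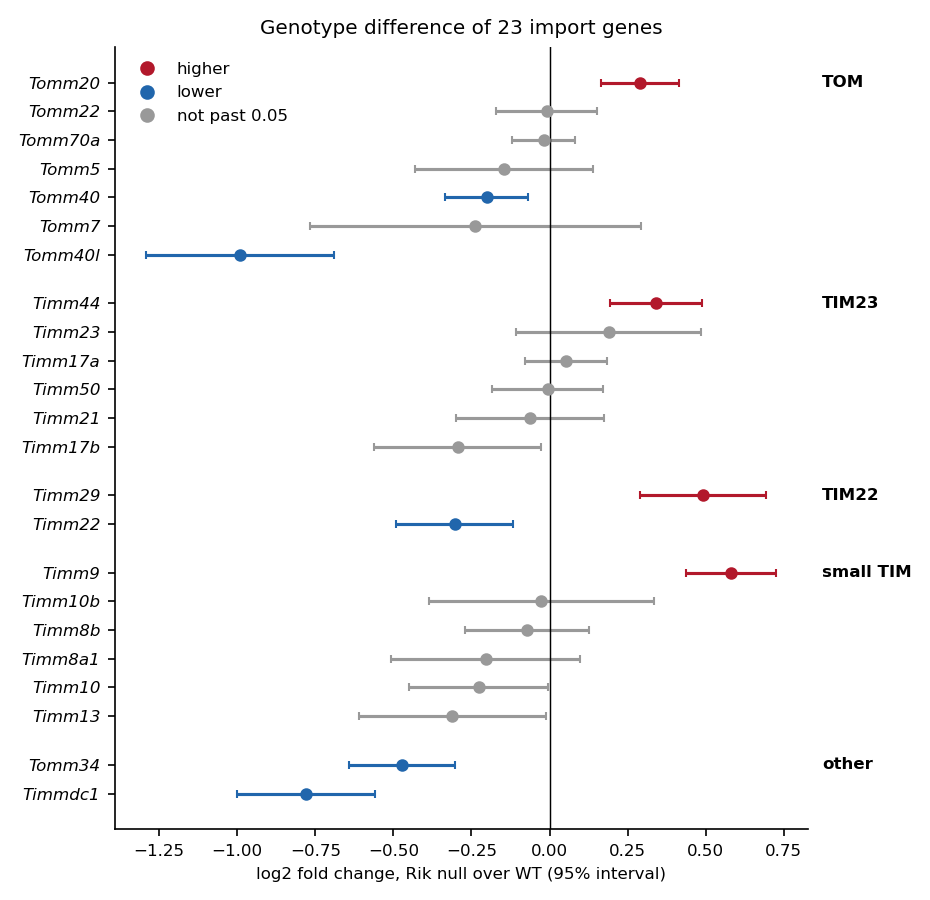
Log2 fold change of each tested member, Rik null over WT, with its 95% interval (x axis), grouped by complex (rows). The 4 red points (Tomm20, Timm44, Timm29 and Timm9) were past an adjusted p of 0.05 and higher in Rik null brains, the 5 blue points (Tomm40, Tomm40l, Timm22, Tomm34 and Timmdc1) were past it and lower, and the 14 grey points were not past it.

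The promoters of 4 called members are shown to place the difference of each gene beside its sequence. RefSeq promoter windows of GRCm38.p6, from 250 bases before to 50 bases after the RefSeq gene start, were found by symbol for 23 of the 26 members. That start can differ from the GENCODE M21 positions given further below. Of 25 windows, 21 ended within a GENCODE M21 transcript of their gene, and the Tomm20 window lies wholly before its GENCODE M21 gene. The table held none for Tomm40l, Tomm7 and Timm21. Each sequence below runs 5′ to 3′ on the strand of its gene, and capitals mark matches to 3 motifs on either strand. The motifs are the palindromic NRF1 site, CCGGAAG, bound by factors of the ETS family such as GABPA, and CCAAT, the CCAAT box. Timm9 and Timmdc1 were chosen as the members of smallest p in each direction that have a window, Tomm20 as a receptor that was higher, and Tomm40 as the pore gene that was lower.
Timm9 (chr12:71136626-71136925, minus strand): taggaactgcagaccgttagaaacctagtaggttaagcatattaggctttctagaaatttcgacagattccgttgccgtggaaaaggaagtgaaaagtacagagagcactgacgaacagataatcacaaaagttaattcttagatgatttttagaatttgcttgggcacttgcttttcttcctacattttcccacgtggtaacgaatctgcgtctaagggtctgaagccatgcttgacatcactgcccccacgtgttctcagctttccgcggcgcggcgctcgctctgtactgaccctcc
Timmdc1 (chr16:38522614-38522913, minus strand): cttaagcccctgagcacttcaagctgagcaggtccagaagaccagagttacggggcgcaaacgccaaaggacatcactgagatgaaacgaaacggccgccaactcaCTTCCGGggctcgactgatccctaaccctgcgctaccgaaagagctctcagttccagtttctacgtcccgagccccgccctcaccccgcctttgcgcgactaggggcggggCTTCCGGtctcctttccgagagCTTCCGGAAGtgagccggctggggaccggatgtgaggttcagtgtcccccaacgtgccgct
Tomm20 (chr8:126945872-126946171, minus strand): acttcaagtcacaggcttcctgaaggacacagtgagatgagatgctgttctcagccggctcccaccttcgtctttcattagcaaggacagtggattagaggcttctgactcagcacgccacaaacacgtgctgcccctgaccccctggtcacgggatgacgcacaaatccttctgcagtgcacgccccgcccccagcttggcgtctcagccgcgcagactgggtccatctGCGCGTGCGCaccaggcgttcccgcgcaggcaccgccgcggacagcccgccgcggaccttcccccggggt
Tomm40 (chr7:19715380-19715679, minus strand): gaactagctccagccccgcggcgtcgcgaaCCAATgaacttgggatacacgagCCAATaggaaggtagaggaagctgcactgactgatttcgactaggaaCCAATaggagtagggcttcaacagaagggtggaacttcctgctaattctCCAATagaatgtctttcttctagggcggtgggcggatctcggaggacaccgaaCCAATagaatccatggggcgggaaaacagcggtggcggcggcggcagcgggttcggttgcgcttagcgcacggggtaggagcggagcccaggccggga
The Timm9 window held none of the 3 motifs and had a GC content of 46.0%. The Timmdc1 window held 4 ETS matches, of which the last 2 overlap and lie on opposite strands, just before the start. The Tomm20 window held 1 NRF1 match that begins 20 bases before the RefSeq start, and the Tomm40 window held 5 CCAAT boxes. Over all members with a window, the ETS letters were found in 10 of 23 (43.5%), against 9.93% of 27025 gene promoters and 17.6% of the 12045 promoters of tested genes. Those 23 take in Tomm6, Tomm20l and Timm8a2, which were not tested, so the shares of tested genes are not like for like. Timm8a2 held the ETS letters, and Tomm6 and Tomm20l held CCAAT. The NRF1 letters were in 2 members (8.70%), against 5.19% of all promoters and 10.2% of those of tested genes, and CCAAT was in 7 (30.4%), against 41.1% and 42.6%. TGATGCAA, the amino acid response element bound by ATF4, was in 0 members, against 1.03% of all promoters and 0.664% of those of tested genes. TATAAA was in 2 members (8.70%), against 15.7% and 9.07%. Among called members with a window, the ETS letters were in 1 of 4 that were higher and in 2 of 4 that were lower in Rik null brains. These matches describe letters only, since binding was not measured.

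In the outer membrane complex, 1 receptor gene was higher in Rik null brains and both pore genes were lower, while the remaining subunits were not past the threshold. Of 9 TOM genes, 7 were tested. Tomm20 (ENSMUSG00000093904, GRCm38 chr8:126930667-126945844, minus strand) encodes the receptor that recognises presequences. It had 365 to 473 CPM in Rik null brains, with a median of 374 CPM, against 302 to 342 CPM with a median of 326 CPM in WT brains. Every Rik null library thus lay above every WT library, and the highest, replicate 1, stood well above the others. The log2 fold change was 0.29 (SE 0.06, adjusted p 8.28e-04, n = 7 each by edgeR), a 1.22-fold level. The other receptors gave narrow intervals around no difference. Tomm70a, the receptor for carriers and other proteins without a presequence, had a log2 fold change of -0.02 with a 95% interval of -0.12 to 0.08. Tomm22, the central receptor, had one of -0.01 with an interval of -0.17 to 0.15.

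Tomm40 (ENSMUSG00000002984, chr7:19701313-19715438, minus strand), whose promoter with its CCAAT boxes is printed above, was the smallest called difference. It had 40.0 to 46.1 CPM in Rik null brains with a median of 43.5 CPM, against 44.9 to 57.3 CPM with a median of 48.3 CPM in WT brains. The genotypes overlapped, and the log2 fold change was -0.20 (SE 0.06, adjusted p 0.0190). Without WT replicates 1 and 2, the highest WT libraries, it was -0.14 with an adjusted p of 0.119 (an alternative added after seeing the data). Tomm40l (ENSMUSG00000005674, chr1:171216011-171222514, minus strand) encodes a second form of the pore protein. It had 8.05 to 14.6 CPM in Rik null brains with a median of 8.90 CPM, against 14.5 to 24.9 CPM with a median of 20.0 CPM in WT brains. The highest Rik null library (replicate 5) and the lowest WT library (replicate 6) were nearly equal, and the genotypes otherwise lay apart. Its log2 fold change of -0.99 (SE 0.14, adjusted p 2.22e-05), a level 1.99-fold lower than in WT, was the largest of the members. Exons of Nr1i3 on the opposite strand cover 64.3% of its exon bases, and Nr1i3 itself was given only 18 counts over all libraries. No source used here says whether counting used strand, so reads of the pair cannot be told apart.

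The small TOM subunits stabilise or help to assemble the pore. Tomm5 had 17.5 to 27.4 CPM in Rik null brains, against 15.2 to 32.4 CPM in WT brains, and a log2 fold change of -0.15 (adjusted p 0.436). Tomm7 had 14.1 to 40.6 CPM in Rik null brains, against 13.5 to 49.3 CPM in WT brains. Its WT libraries differed among themselves by up to 3.65-fold, so that the interval of its log2 fold change of -0.24 ran over -0.77 to 0.29. The Tomm7 value was -0.05 without WT replicate 1, -0.06 without WT replicate 2 and 0.25 (adjusted p 0.362) without both, which was added after seeing the data, so its sign rested on those libraries. Tomm6 and Tomm20l, a form of Tomm20 named for its likeness, had 0 to 9 counts per library and were not tested. Exons of Gm21981 on the same strand cover 75.95% of the Tomm6 exon bases, and reads of the pair cannot be told apart there.

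**Figure D2:**
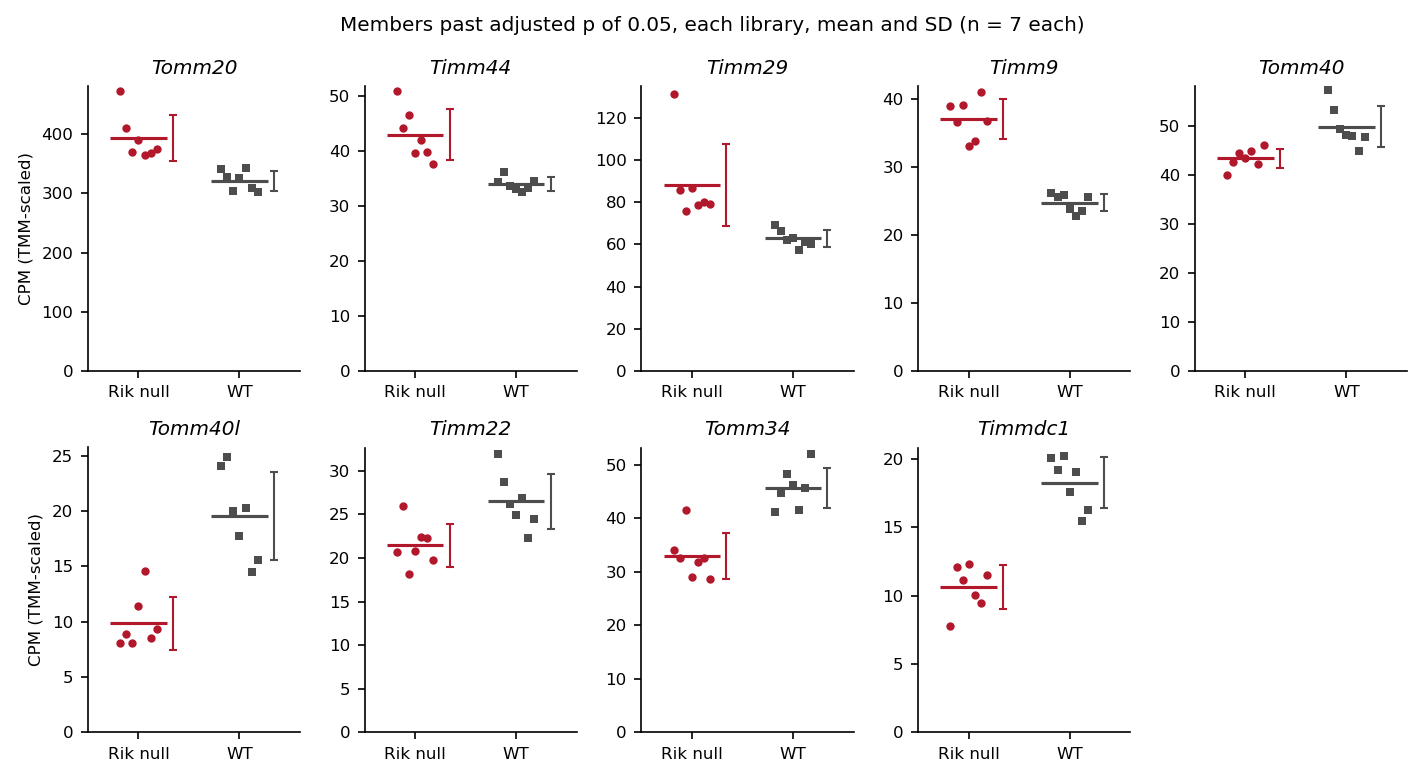
CPM of the 9 members past an adjusted p of 0.05 in each library (y axes start at 0), Rik null libraries left and WT libraries right, with the mean (bar) and SD (side bar), n = 7 each. The genotypes do not overlap for Tomm20, Timm44, Timm29, Timm9 and Timmdc1, and for Tomm20 and Timm29 the topmost Rik null point is replicate 1.

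Among the 6 TIM23 genes, all tested, only Timm44 was past the threshold. Timm44 (ENSMUSG00000002949, chr8:4259731-4275913, minus strand) encodes the protein that ties the import motor, driven by mitochondrial Hsp70, to the channel. It had 37.6 to 51.0 CPM in Rik null brains with a median of 42.1 CPM, against 32.5 to 36.3 CPM with a median of 33.8 CPM in WT brains. No libraries overlapped, and the WT libraries were close to each other. The log2 fold change was 0.34 (SE 0.07, adjusted p 8.80e-04), a 1.27-fold level. The channel gene Timm23 had 31.0 to 65.2 CPM in Rik null brains, against 27.0 to 46.0 CPM in WT brains. Its log2 fold change was 0.19 (adjusted p 0.323), and 0.03 without Rik null replicate 1, which held the highest value. Timm50, which receives presequences from the outer membrane, had a log2 fold change of -0.01 (interval -0.18 to 0.17), and Timm21, which in yeast links the complex to TOM and to the respiratory chain, one of -0.06 (interval -0.30 to 0.17).

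Timm17a and Timm17b encode alternative forms of another channel subunit. Timm17a had 79.0 to 98.5 CPM in Rik null brains with a median of 82.7 CPM, against 72.4 to 91.6 CPM with a median of 80.9 CPM in WT brains. Timm17b had 9.22 to 15.1 CPM in Rik null brains with a median of 12.04 CPM, against 11.4 to 19.7 CPM with a median of 13.6 CPM in WT brains. Neither passed the threshold, with log2 fold changes of 0.05 (adjusted p 0.545) and -0.29 (adjusted p 0.0815). For Timm17b the adjusted p was 0.0374 without Rik null replicate 5, 0.0407 without WT replicate 6 and 0.204 without WT replicate 1. Without WT replicates 1 and 2 (added after seeing the data), the Timm17b value was -0.13 (adjusted p 0.448).

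The TIM22 complex was measured through its channel gene and 1 partner, which differed in opposite directions. Timm29 (ENSMUSG00000048429, chr9:21592722-21595970, plus strand) encodes a subunit of the complex found in animals, which in human cells links TIM22 to TOM. It had 75.6 to 131 CPM in Rik null brains with a median of 80.2 CPM, against 57.6 to 69.2 CPM with a median of 62.1 CPM in WT brains. The genotypes did not overlap, and replicate 1 was far above the other Rik null libraries, which reached 86.9 CPM. The log2 fold change was 0.49 (SE 0.10, adjusted p 5.56e-04), a 1.41-fold level, and 0.38 without replicate 1. Exons of Yipf2 on the opposite strand cover 3.38% of the Timm29 exon bases, and Yipf2 had 2235 counts in total against 17414. Timm22 (ENSMUSG00000020843, chr11:76406952-76416292, plus strand), the channel gene, had 18.2 to 25.9 CPM in Rik null brains with a median of 20.8 CPM, against 22.3 to 32.0 CPM with a median of 26.2 CPM in WT brains. The genotypes overlapped, and the log2 fold change was -0.30 (SE 0.09, adjusted p 0.0125). Without WT replicates 1 and 2 it was -0.22 (adjusted p 0.0795).

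Timm9 was higher in Rik null brains, while Timm10 and Timm10b, whose products share its ring or its place at TIM22, were not past the threshold. Timm9 (ENSMUSG00000021079, chr12:71123173-71136684, minus strand) forms a ring with the Timm10 product that carries precursors to TIM22. It had 33.1 to 41.0 CPM in Rik null brains with a median of 36.8 CPM, against 22.8 to 26.1 CPM with a median of 25.6 CPM in WT brains. The genotypes did not overlap, and even the lowest Rik null library lay well above the highest WT library. The log2 fold change was 0.58 (SE 0.07, adjusted p 2.13e-06), a 1.497-fold level, and it lay between 0.56 and 0.61 whichever library was left out. Timm10 had 10.8 to 14.4 CPM in Rik null brains with a median of 12.3 CPM, against 12.1 to 19.0 CPM with a median of 13.5 CPM in WT brains. Its log2 fold change of -0.23 had an adjusted p of 0.105. Timm10b, which holds the ring at the TIM22 complex, had 3.34 to 8.001 CPM in Rik null brains with a median of 5.26 CPM, against 4.13 to 7.98 CPM with a median of 5.35 CPM in WT brains. Exons of Arfip2 on the opposite strand cover 7.73% of the Timm10b exon bases, and Arfip2 had 25481 counts in total against 1260. Whether counting used strand is not known, so reads of the pair cannot be told apart there.

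Timm8a1, Timm8b and Timm13 encode subunits of a second kind of ring, which in yeast and human cells carries TIM23 and other precursors. Timm8a1 had 6.47 to 8.36 CPM in Rik null brains with a median of 7.23 CPM, against 5.03 to 11.4 CPM with a median of 8.66 CPM in WT brains (adjusted p 0.294). Timm8b had 58.5 to 71.6 CPM in Rik null brains with a median of 62.6 CPM, against 46.8 to 77.9 CPM with a median of 69.2 CPM in WT brains (adjusted p 0.593). In both, the WT range enclosed the Rik null range. Exons of Nkapd1 on the opposite strand cover 15.6% of the Timm8b exon bases, and Nkapd1 had 4530 counts in total against 14855. Whether counting used strand is not known, so reads of that pair cannot be told apart there. Timm13 had a log2 fold change of -0.31 with an adjusted p of 0.0987, and its WT libraries set the value. It ranged over -0.39 to -0.18 with 1 library left out, with an adjusted p of 0.0306 without WT replicate 6 and of 0.278 without WT replicate 2. Without WT replicates 1 and 2 (added after seeing the data), it was -0.04 (adjusted p 0.785). Timm8a2, a further copy of Timm8a, had at most 4 counts in a library and was not tested.

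The pair of genes taken in by name alone were both lower in Rik null brains. Timmdc1 (ENSMUSG00000002846, chr16:38498347-38522663, minus strand) encodes an inner membrane protein of the same family as the TIM channels, known as an assembly factor of respiratory complex I. It had 7.77 to 12.3 CPM in Rik null brains with a median of 11.1 CPM, against 15.4 to 20.2 CPM with a median of 19.0 CPM in WT brains. It was the only member whose Rik null libraries all lay below every WT library. The log2 fold change was -0.78 (SE 0.11, adjusted p 1.04e-05), a level 1.72-fold lower than in WT. Tomm34 (ENSMUSG00000018322, chr2:164053540-164071169, minus strand) encodes a largely cytosolic partner of Hsp70 and Hsp90 that handles precursors. It had 28.7 to 41.5 CPM in Rik null brains with a median of 32.5 CPM, against 41.2 to 52.0 CPM with a median of 45.6 CPM in WT brains. Only Rik null replicate 3 reached the WT range, and the log2 fold change was -0.47 (SE 0.08, adjusted p 1.45e-04), a level 1.39-fold lower than in WT.

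Levels between members can be compared only per length, for which the deposited FPKM (fragments scaled by gene length and by sequencing depth) were used. Timm8b had the highest level, at 121 ± 10.1 FPKM in Rik null brains and 127 ± 22.8 FPKM in WT brains (SD, n = 7 each). Tomm20 came second, at 79.5 ± 7.72 FPKM in Rik null brains and 64.8 ± 3.46 FPKM in WT brains. Next in WT brains stood Tomm22 at 30.3 FPKM, Timm13 at 29.7 FPKM, Tomm70a at 29.1 FPKM, Tomm5 at 27.7 FPKM and Tomm7 at 25.0 FPKM, and the WT ranges of these neighbours overlapped. The lowest tested members in WT brains were Tomm40l at 3.77 FPKM, Timm21 at 3.44 FPKM and Timm10b at 1.54 FPKM. The listed length takes in the exons of all transcripts of a gene, 5135 bases for Tomm40l. For Timm10b it is 3582 bases, the whole span of the gene. A longer listed length lowers FPKM, so the order of members depends on it. Tomm40l stood at 1.90 ± 0.458 FPKM in Rik null brains and 3.77 ± 0.759 FPKM in WT brains, where the main pore gene Tomm40 stood at 9.54 ± 0.443 FPKM and 10.9 ± 0.897 FPKM in the same order of groups. Called members were found at both ends of this order.

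**Figure D3:**
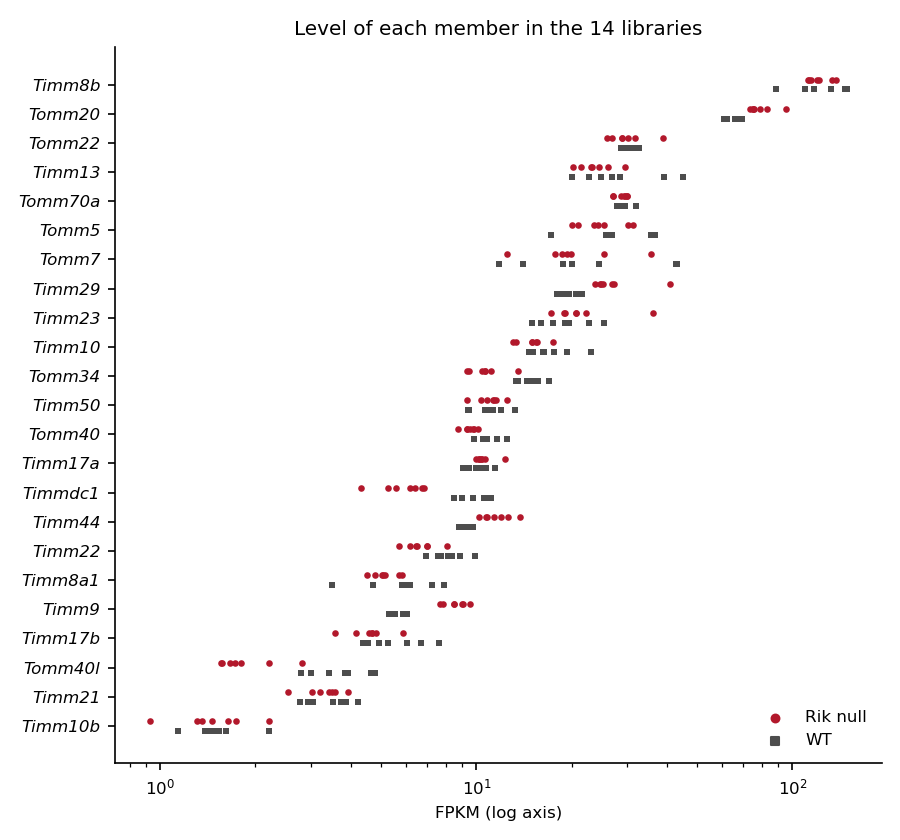
FPKM of the 23 tested members in each of the 14 libraries (x axis, log scale), members ordered by their WT mean, Rik null libraries as circles above and WT libraries as squares below. Timm8b and Tomm20 lead, and for Tomm20 all circles lie to the right of the squares, while for Timmdc1 all lie to the left.

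For 4 pairs of related members, the log2 ratio of their counts within each library was compared by a two-sided exact permutation test over the 14 libraries, which does not depend on scaling. The smallest p that the design allows is 5.83e-04, and p-values were adjusted over the 4 pairs. The Tomm40l/Tomm40 ratio was -2.45 to -1.62 in Rik null brains and -1.63 to -1.10 in WT brains, with means of -2.17 ± 0.29 and -1.37 ± 0.20 in that order (SD, n = 7 each, exact). The difference was -0.80 (SE 0.13, permutation p 0.00117, adjusted p 0.00466), so Tomm40l was lower relative to Tomm40, beyond the lower level of both. The Timm17a/Timm17b ratio was 2.83 ± 0.24 in Rik null brains and 2.50 ± 0.23 in WT brains, a difference of 0.33 (SE 0.13, permutation p 0.0186, adjusted p 0.0373). That call was lost when any 1 of 8 libraries was left out, with adjusted p up to 0.0816. The Timm8a1/Timm8b ratio differed by -0.11 (SE 0.12) and the Timm10/Timm10b ratio by -0.17 (SE 0.21), both with an adjusted permutation p of 0.422.

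**Figure D4:**
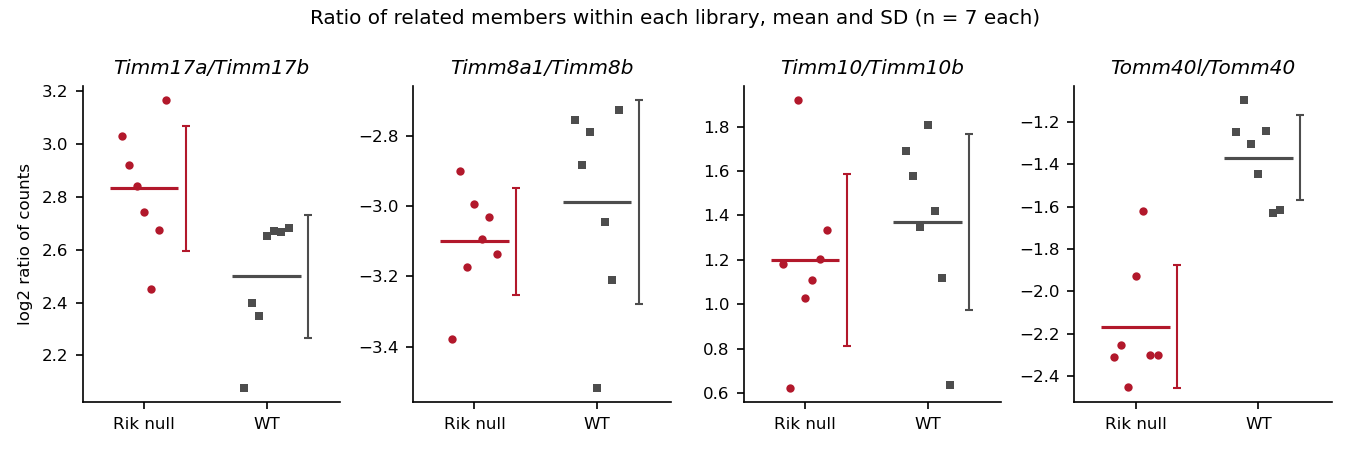
Log2 ratio of the counts of 2 related members within each library (y axes differ and do not start at 0), Rik null libraries left and WT libraries right, with the mean (bar) and SD (side bar), n = 7 each. The Tomm40l/Tomm40 ratios of Rik null libraries, -2.45 to -1.62, lie almost wholly below those of WT libraries, -1.63 to -1.10.

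The precision of the comparison differed with the listed gene length, which takes in the exons of all transcripts and can exceed the length of any 1 mRNA. The 9 tested members with a listed length under 2000 bases had a median coefficient of variation among WT libraries of 19.2%, against 8.31% for the 14 longer members. Of the 9 short members 1 was called (Timmdc1), and of the 14 long members 8 were called, 4 in each direction. Over all tested genes, 23.8% of 2954 under that length and 36.7% of 13928 longer ones were called, with median WT coefficients of variation of 25.8% and 12.5%. Relative to the WT mean, the median of the short members lay between -0.35 and 0.07 on the log2 scale in Rik null libraries. In WT libraries it was highest in replicates 1 and 2 (0.41 and 0.33) and lowest in replicate 6 (-0.49). The 14 longer members stayed between -0.15 and 0.12 in Rik null libraries and between -0.11 and 0.09 in WT libraries. Nuclear complex I and cytosolic ribosomal protein genes, chosen by name and not by length, were also highest in replicates 1 and 2 among WT libraries. The median of 37 nuclear complex I genes was -0.16 to 0.20 in Rik null libraries and -0.46 to 0.30 in WT libraries, and that of 76 cytosolic ribosomal protein genes was -0.05 to 0.61 and -0.46 to 0.31 in that order of groups. Rik null libraries did not always match in this way. Ribosomal protein genes were at 0.61 and short members at 0.01 in Rik null replicate 1, and at 0.18 and -0.20 in Rik null replicate 2. In all of these sets the lowest WT library was replicate 6. The part of this spread between WT libraries in the results for short members was not tested.

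**Figure D5:**
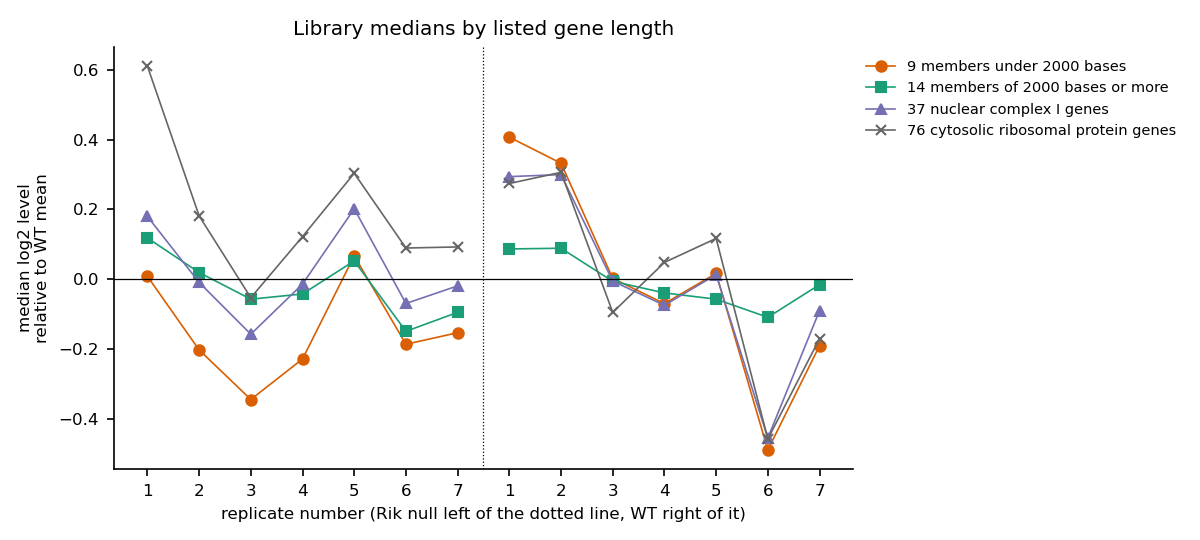
Median log2 level relative to the WT mean (y axis) in each library (x axis, replicate numbers, Rik null left and WT right of the dotted line) for short members, long members, nuclear complex I genes and cytosolic ribosomal protein genes. Lines join points of a set and imply no order. In WT replicate 6 the short members were at -0.49, while the long members were at -0.11.

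Around the translocases, 60 genes in 5 lists, called other import genes here, were tested in the same fit. The lists also hold genes with other or wider roles, such as Vdac1, Immt and Hspa8. Of the 60, 28 (46.7%) were called, beside 34.4% of all genes. Of the 60, 4 were higher in Rik null brains and 24 were lower, beside 16.5% and 17.9% of all genes, and the counts per list that follow stand against the same shares. Their median on the log2 scale was -0.09. Of the motor, processing and proteolysis genes, 2 of 15 were higher and 5 were lower. Hspa9, the mitochondrial Hsp70 that pulls presequence proteins inward, was higher with a log2 fold change of 0.22 (adjusted p 0.0109), and so was its exchange factor Grpel2 with 0.35 (adjusted p 0.00103). Dnajc15, a J-protein of the channel, was lower with -0.40, and Mipep, a peptidase that trims imported proteins, with -0.47. In the list for the oxidative import pathway of the intermembrane space (MIA), 3 of 8 were lower and 0 were higher. The lower ones were Chchd10 (-0.41) and Aifm1 (-0.32), whose products pass through or anchor that pathway, and Agk (-0.24). The Agk product is a TIM22 subunit, so its call is not a result for the MIA pathway. The sulfhydryl oxidase gene Gfer had a log2 fold change of 0.22 with an adjusted p of 0.0985.

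Of 17 genes for outer membrane sorting and for the MICOS complex, which shapes the cristae, 1 was higher and 6 were lower. Chchd3 (-0.29) and Apool (-0.65) of MICOS and Mtx3 (-0.25) were lower, and Mtx1, another metaxin of the sorting machinery, was higher (0.28). Of 7 genes for inner membrane insertion and mitochondrial folding, 4 were lower and 0 were higher. They were Bcs1l (-0.82), which assembles complex III, Ghitm (-0.33), and the chaperonin genes Hspd1 (-0.27) and Hspe1 (-0.26). Of 13 cytosolic chaperones that deliver precursors, 6 were lower and 1 was higher, with Hsph1, Hspa4, Stip1 and Hsp90aa1 of smallest p and all lower (log2 fold changes of -1.15, -0.54, -0.37 and -0.20 in that order). With library size alone in place of TMM, which puts the median of all genes at 0.07, the 60 genes split into 10 higher and 13 lower, beside 36.1% of all genes called (23.0% higher and 13.1% lower). The members then split into 4 higher and 4 lower, as Tomm40 lost its call. Without WT replicates 1 and 2 (added after seeing the data), 14 of the 60 were lower, beside 15.8% of all genes.

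Both sexes were present in each genotype. No member had a genotype by sex interaction past the threshold by edgeR or by DESeq2, with smallest adjusted p-values of 0.832 and 0.753 in that order, and 1 member had an unadjusted p under 0.05 by each tool. By edgeR this was Tomm40l (interaction of 0.59 on the log2 scale, unadjusted p 0.0358). It averaged 8.51 CPM in Rik null females against 20.7 CPM in WT females, and 11.6 CPM in Rik null males against 18.8 CPM in WT males. Among females alone 3 members were higher and 3 lower, and among males alone 4 were higher and 3 lower. Of all genes, 16.4% were called in the fit of females (7.32% higher and 9.09% lower) and 15.8% in that of males (7.17% higher and 8.65% lower). No batch or date is given in the labels.

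Cell type markers moved beside these results, and their part in them was not tested. All 5 oligodendrocyte markers were lower, with a summed level of 12051 to 14657 CPM in Rik null brains, against 16352 to 20638 CPM in WT brains. Of the microglial markers 3 of 4 were lower (110 to 159 CPM in Rik null brains, against 177 to 241 CPM in WT brains), and of the astrocyte markers 3 of 5 (2528 to 2944 CPM, against 2737 to 3613 CPM in WT brains). Of 5 neuronal markers 1 was higher and 0 lower, with sums of 4017 to 4253 CPM in Rik null brains and 3840 to 4429 CPM in WT brains. All 4 blood markers were lower (214 to 372 CPM in Rik null brains, against 363 to 748 CPM in WT brains), as were 2 of 3 for choroid plexus (557 to 736 CPM, against 515 to 823 CPM in WT brains) and 2 of 3 for meninges (52.1 to 72.7 CPM, against 54.5 to 108 CPM in WT brains). Both tested pituitary markers were lower (0.541 to 5.76 CPM in Rik null brains, against 2.21 to 405 CPM in WT brains). For both, the genotypes overlapped and the SD in WT brains exceeded the mean (Gh 19.3 ± 40.6 CPM, Pomc 40.7 ± 101 CPM, n = 7). Of 3 endothelial markers 1 was higher, and none of 3 oligodendrocyte precursor markers or of the 1 tested skeletal muscle marker passed the threshold. No tested marker was at 0 in all libraries.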

How the data were processed

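RNA of P23 brains was sequenced in libraries labelled as 7 Rik null and 7 WT. Groups, replicate numbers and sex came from the sample labels. The group sizes in a figure legend of the study differ from the labels at this age, and the labels were used. The study describes its samples as individual brains, and the p-values measure the spread between these libraries. Library preparation, sequencing and the standard analysis were done by a commercial provider. The sources used here name no aligner, counter, annotation or strand setting. The submitters' processing notes name GRCm38. Listed positions in the table matched GENCODE M21 on GRCm38 for 1448 of 52073 shared identifiers, so positions were taken from GENCODE M21 by identifier not from the table.

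Raw read counts and FPKM per gene, with a listed gene length, were deposited by the authors. Counts were tested and FPKM, which the authors scaled by length and depth, were only described. The authors' own comparison columns (mean normalized counts, log2 fold changes, p-values) were not used. Libraries of 1 genotype differed by more than sampling noise (chi-square over degrees of freedom of at least 4.45), and each counted as 1 replicate.

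Counts were fitted with edgeR 4.0.16 in R 4.3.3 (quasi-likelihood F test at its defaults, two-sided, genotype only, TMM scaling, filterByExpr, 16882 genes), with a threshold of 0.05 on the Benjamini-Hochberg adjusted p. The common biological coefficient of variation was 14.3%. Ratios of paired members (0.5 added to each count) were tested by exact permutation over 3432 assignments. Scripts were tested on simulated data.

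Members and lists were chosen with earlier results of these data known. Every member is accounted for. Values per genotype are given for members past the threshold and for those of the 4 pairs, and up to 4 genes of smallest p are named per import list. Alternatives were a DESeq2 1.42.0 Wald test, limma 3.58.1 voom with quality weights, RLE size factors, scaling without mitochondrial genes or by library size alone, 2 other filters (1 count in any library, or 1 CPM in 7 libraries), the robust option, sex as a covariate, a replicate block, each sex alone, each library left out, and Rik null replicate 1 with WT replicate 4 left out. Leaving out WT replicates 1 and 2 was added after seeing the data. For ratios, 1 was added in place of 0.5.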

Additional observations from a re-analysis of the deposited data

Results flagged for a closer look

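In a screen of 46 groups of 7 libraries (23 members in each genotype), 6 groups held a library whose gap to its nearest neighbour, relative to the range of the group, passed Dixon's 95% critical value for a group of 7. Chance flags about 1 in 20 groups. In 4 of the 6 it was Rik null replicate 1 that stood high. Its Tomm20 level of 473 CPM was followed by 410.4 CPM, its Timm23 level of 65.2 CPM by 40.1 CPM, its Timm17a level of 98.5 CPM by 84.8 CPM, and its Timm29 level of 131 CPM by 86.9 CPM. Without that library, Tomm20 and Timm29 stayed past the threshold and the members stayed at 4 higher and 5 lower in Rik null brains. Of all genes, 15.3% were higher and 16.5% lower in that fit. Tomm34 stood high in Rik null replicate 3, with 41.5 CPM followed by 34.2 CPM. Tomm70a stood high in WT replicate 5, with 317 CPM followed by 292 CPM.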

How the results depend on the processing

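Timm9, Timm29, Timm44, Timmdc1 and Tomm40l kept their direction and their call under all 28 alternatives, and no called member reversed. Of members not past the threshold, Tomm7, Tomm5, Timm8b, Timm10b, Timm21, Tomm70a, Timm50 and Tomm22 changed sign under at least 1 alternative, and none of them was called under any. With library size alone, Tomm40 stood at -0.13 on the log2 scale (adjusted p 0.115), and the 60 other import genes gave 10 higher and 13 lower. Among females alone 3 members were lower (Tomm20, Tomm40 and Tomm34 lost their calls), with 0 other import genes higher and 14 lower. Of all genes, 7.32% were higher and 9.09% lower in that fit. Among males alone 3 members were lower (Tomm40 and Timm22 lost theirs), with 9 other import genes lower, beside 8.65% of all genes. Without WT replicates 1 and 2 (added after seeing the data), 3 members and 14 other import genes were lower, beside 15.8% of all genes. These subsets hold fewer libraries. Timm13 passed without a filter beyond 1 count (adjusted p 0.0423). Leaving out each library in turn gave 4 members higher and 5 to 7 lower, and 3 to 5 other import genes higher and 16 to 24 lower. In these fits 15.0% to 16.3% of all genes were higher and 16.1% to 17.5% were lower. The difference in the Timm17a/Timm17b ratio ranged over 0.26 to 0.40 with a library left out, and was 0.46 in females (adjusted p 0.114) and 0.18 in males (adjusted p 0.419). That in the Tomm40l/Tomm40 ratio ranged over -0.89 to -0.75, and was -1.03 in females (adjusted p 0.114) and -0.52 in males (adjusted p 0.229). With 4 against 3 libraries of a sex, the smallest permutation p is too large for a single pair to pass after adjustment. Counts of genes per list were small and moved with many alternatives. The replicate block left 4 members higher and 5 lower, beside 17.2% and 18.2% of all genes. Same-numbered libraries correlated at -0.06 to 0.14, 3 of 7 matched their own number best and 2 pairs shared a sex. The labels do not say whether the numbers pair littermates, and these values cannot decide it.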

Other observations

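Start sites of neighbouring genes were examined after the values were seen. Of the 23 tested members, 4 (17.4%) had a protein-coding gene of GENCODE M21 starting head to head on the opposite strand, against 9.83% of 14344 tested protein-coding genes. The range searched ran from 1000 bases before the start of a gene to just after it. The start of Timm9 lies 164 bases from that of 2700049A03Rik in GENCODE M21, inside the window printed above. Like Timm9, that gene was higher in Rik null brains, by 0.47 on the log2 scale (SE 0.10, edgeR adjusted p 0.00109). The neighbours of Timm23 (Parg, 51 bases away), Timm17b (Pqbp1, 88 bases) and Timm8b (Sdhd, 98 bases) had log2 fold changes of 0.19, 0.09 and 0.14 in that order, and none was past the threshold, nor was the member beside it.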
